A study of Nothobranchius furzeri with 8 samples.

Results

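Threonine is read from a box of 4 codons that share their first letters, and the nuclear tRNAs that read them carry 3 different anticodons. These are tRNA-Thr-AGT, tRNA-Thr-CGT and tRNA-Thr-TGT, named by the anticodon in DNA letters. They were chosen by name, as every nuclear tRNA annotated for threonine, and they are 3 of the 49 nuclear anticodons counted in killifish brain. The annotation placed 7 genes under tRNA-Thr-AGT, 3 under tRNA-Thr-CGT and 5 under tRNA-Thr-TGT, or 15 of 289 nuclear tRNA genes. In the table of 3′ ends they appeared as 4 of 66 nuclear transcripts or clusters, with tRNA-Thr-AGT split into tRNA-Thr-AGT-1 and tRNA-Thr-AGT-2.

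The samples were brains of Nothobranchius furzeri, the African turquoise killifish, from the strain MZM-0410 used throughout the study unless otherwise stated. The old group held 4 brains at 39 wph (weeks post-hatching), and the young group 4 brains at 5 wph, each with 2 males and 2 females that carried no label of genotype or treatment. Labels of the extraction also word the older age as 39 to 40 weeks. Whole brains mix cell types, so fewer cells of a type and less tRNA per cell cannot be told apart.

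As background, cytosolic threonyl-tRNA synthetase attaches threonine to nuclear threonine tRNAs, while a separate enzyme serves mitochondria. In eukaryotes the first anticodon base of tRNA-Thr-AGT is converted to inosine, which lets it read codons that include ACU and ACC. tRNA-Thr-CGT reads ACG, and tRNA-Thr-TGT reads ACA and can wobble to ACG. A tRNA that carries its amino acid is protected from oxidation, so in this assay charged tRNA is read with a complete CCA end and uncharged tRNA with the end CC. Reads that end in C, or in none of these, are called trimmed here.

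Total reads per brain ranged from 717858 to 3112101, and 32776 to 122604 of them were threonine tRNA reads. The E. coli tRNA-Lys spike-in was added as a mix with more CCA than CC ends. Of its CCA plus CC reads, 78.8 ± 1.14% ended in CCA in libraries from old brains and 77.2 ± 0.468% in those from young brains (SD, n = 4 each). These shares overlapped between the ages. As a part of all spike-in reads, CCA ends ran from 73.0 to 75.0% for old and 71.5 to 72.9% for young brains, without overlap. Brains of 1 age differed from each other by a chi-square of 53.7 to 442 per degree of freedom, where sampling alone gives about 1, and none was a repeat of another. No label gave a batch. Intervals below are 95% Wilson intervals and cover counting error only.

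The threonine tRNAs together made up a slightly smaller share of the nuclear tRNA reads in old than in young brains, and this did not pass the test after adjustment. Their share was 4.54% and 4.77% in the old males and 4.72% and 4.36% in the old females, against 4.99% and 4.99% in the young males and 4.94% and 4.81% in the young females. All 4 old brains lay below all 4 young brains. The same held for 2 of 22 amino acids, leucine and threonine, or 9.09% of those measured. Another 2 had all old brains above all young ones, so 18.2% of amino acids did not overlap. The means were 4.60 ± 0.188% in old and 4.93 ± 0.085% in young brains (SD, n = 4 each). In edgeR's quasi-likelihood test the log2 change was −0.12 with a standard error of 0.05 and an adjusted p of 0.110, where 3 of 22 amino acids were called, or 13.6%.

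Threonine reads per spike-in read averaged 7.67 ± 0.739 in old and 7.57 ± 1.38 in young brains (SD, n = 4 each). The smaller share was therefore seen relative to other nuclear tRNAs, and scaling to the spike-in turned the sign of the change for all 3 anticodons, to 0.01 for tRNA-Thr-AGT, 0.03 for tRNA-Thr-CGT and 0.02 for tRNA-Thr-TGT on the log2 scale. None of these passed the test.

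By anticodon, tRNA-Thr-AGT, whose inosine-bearing form serves ACU and ACC, was the most read. It held 2.40%, 2.49%, 2.30% and 2.18% of the nuclear reads in the old brains (male 1, male 2, female 1 and female 2, the order used below), against 2.59%, 2.54%, 2.50% and 2.44% in the young brains. The groups overlapped only through old male 2, which lay above young female 2.

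tRNA-Thr-TGT, which reads ACA, came next. It held 1.53%, 1.68%, 1.74% and 1.39% in the old brains, against 1.67%, 1.75%, 1.71% and 1.68% in the young brains. Old male 1 and old female 2 were below every young brain, and the other two old brains lay within the young range.

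tRNA-Thr-CGT, which reads ACG, was the least read. It held 0.602%, 0.591%, 0.683% and 0.782% in the old brains, against 0.731%, 0.708%, 0.728% and 0.694% in the young brains. Old female 2 was the highest of all 8 brains. Both old males were the lowest, and old female 1 also lay below every young brain, while the young brains lay close together.

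In edgeR's test the log2 changes in abundance were −0.10 (SE 0.06) for tRNA-Thr-AGT, −0.11 (SE 0.09) for tRNA-Thr-CGT and −0.10 (SE 0.07) for tRNA-Thr-TGT, with adjusted p values of 0.256, 0.444 and 0.371. Of 47 nuclear anticodons tested, 3 were called, or 6.38%, none of them a threonine anticodon, and the median change over the 47 was 0.01. Single old brains moved these estimates. tRNA-Thr-CGT changed by −0.19 without old female 2 (edgeR adjusted p 0.073) and by −0.06 without old male 2, and tRNA-Thr-TGT by −0.15 without old female 1 and by −0.04 without old female 2. Across the fits that left out a brain, 0 to 8 anticodons were called in all, none of them for threonine. No threonine anticodon had old brains entirely below young ones, which held for 4.08% of all 49 anticodons, or entirely above, which held for 12.2%. By transcript the changes were −0.10 for tRNA-Thr-AGT-1, −0.16 for tRNA-Thr-AGT-2, −0.11 for tRNA-Thr-CGT-1 and −0.10 for tRNA-Thr-TGT-1, with edgeR adjusted p values of 0.293 to 0.490 against 9.09% of 66 transcripts called.

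**Figure D1:**
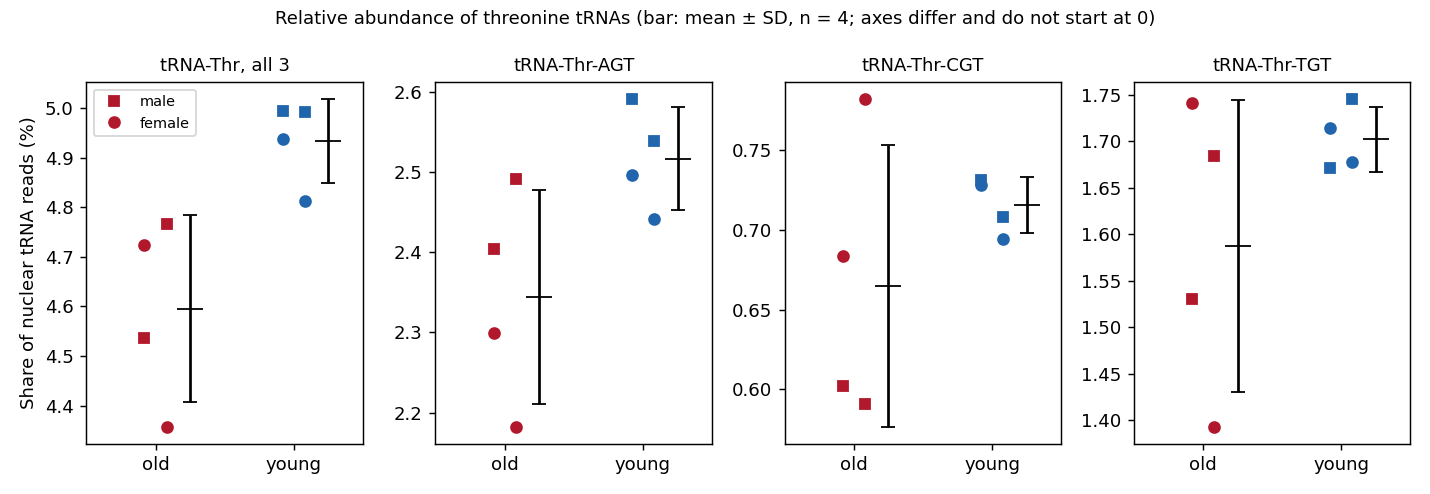
Share of nuclear tRNA reads (%, vertical axes that differ between panels and do not start at 0) of the 3 threonine tRNAs summed and of each, in old (left) and young (right) brains, with squares for males, circles for females and black bars for the mean ± SD (n = 4). The summed share does not overlap between the ages (4.36 to 4.77% in old, 4.81 to 4.99% in young brains), while each anticodon's shares do overlap.

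The order of reads, tRNA-Thr-AGT over tRNA-Thr-TGT over tRNA-Thr-CGT, was the same in all 8 brains. It followed the order of gene numbers, with 46.7%, 33.3% and 20.0% of the threonine tRNA genes in these anticodons. Divided by its number of genes, tRNA-Thr-AGT held 0.335% of the nuclear reads per gene in old and 0.360% in young brains. tRNA-Thr-TGT held 0.317% per gene in old and 0.340% in young brains, and tRNA-Thr-CGT 0.222% in old and 0.238% in young brains. Per gene, tRNA-Thr-AGT and tRNA-Thr-TGT were close, with tRNA-Thr-AGT higher in 7 of 8 brains, and tRNA-Thr-CGT was the lowest in all 8. These read levels are not divided by length and also depend on how well each tRNA is copied past its modified bases.

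Within threonine tRNA, the composition had the same mean at both ages but a wider spread among old brains. tRNA-Thr-CGT took 13.3%, 12.4%, 14.5% and 17.9% of the threonine reads in the old brains, against 14.6%, 14.2%, 14.7% and 14.4% in the young brains. Old female 2 lay above and old males 1 and 2 below all 4 young brains, with an SD of 2.44 points in old and 0.249 points in young brains. tRNA-Thr-AGT took 53.0%, 52.3%, 48.7% and 50.1% in the old brains, against 51.9%, 50.9%, 50.5% and 50.7% in the young brains. tRNA-Thr-TGT took 33.7%, 35.3%, 36.8% and 32.0% in the old brains, against 33.5%, 35.0%, 34.7% and 34.9% in the young brains. The lowest and highest shares of all 3 anticodons were in old brains, but the difference in spread was not tested.

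The log2 read ratios within a brain differed between the ages by 0.01 (SE 0.12) for tRNA-Thr-AGT over tRNA-Thr-CGT, by 0.00 (SE 0.08) for tRNA-Thr-AGT over tRNA-Thr-TGT and by −0.01 (SE 0.13) for tRNA-Thr-CGT over tRNA-Thr-TGT. The limma adjusted p values were 0.969, 0.979 and 0.969. None of 45 synonymous pairs was called by limma, or 0%, while 10 had an unadjusted p under 0.05 and 13 were called without old female 2.

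The charged share of the threonine tRNAs, CCA reads over CCA plus CC reads, was 58.4 ± 6.27% in old and 63.6 ± 7.57% in young brains (SD, n = 4 each), a difference smaller than the spread among brains. It was 54.0%, 67.6%, 55.1% and 56.9% in the old brains, against 74.4%, 60.3%, 62.7% and 57.0% in the young brains. Young male 1 was the highest, old male 2 was the second highest of all 8, and the remaining old brains lay below young female 2, the lowest young brain. The change in log2 odds of a CCA end was −0.33 (SE 0.36) with an edgeR adjusted p of 0.410, and 1 of 22 amino acids was called, or 4.55%. By size of the change threonine ranked 20 of 22. The change was −0.09 without young male 1 and −0.51 without old male 2, and it was −0.56 when trimmed reads were counted as not CCA, none of which passed the test. Without old female 2, 17 of 22 amino acids were called, and threonine was not, with a change of −0.29 (edgeR adjusted p 0.353).

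tRNA-Thr-AGT was charged to 56.8%, 70.0%, 56.9% and 59.3% in the old brains, against 76.6%, 62.4%, 64.2% and 58.6% in the young brains. tRNA-Thr-CGT was charged to 53.2%, 65.8%, 55.8% and 57.5% in the old brains, against 72.5%, 58.7%, 61.3% and 55.6% in the young brains. tRNA-Thr-TGT was charged to 49.6%, 64.7%, 52.2% and 52.5% in the old brains, against 71.7%, 57.8%, 60.9% and 55.1% in the young brains. In each anticodon, old male 2 stood above the other old brains and above all young brains except young male 1, and the ages overlapped. The Wilson intervals reached at most 0.759 points to either side for tRNA-Thr-AGT, 1.45 for tRNA-Thr-CGT and 0.962 for tRNA-Thr-TGT, so spread between brains far exceeded counting error.

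**Figure D2:**
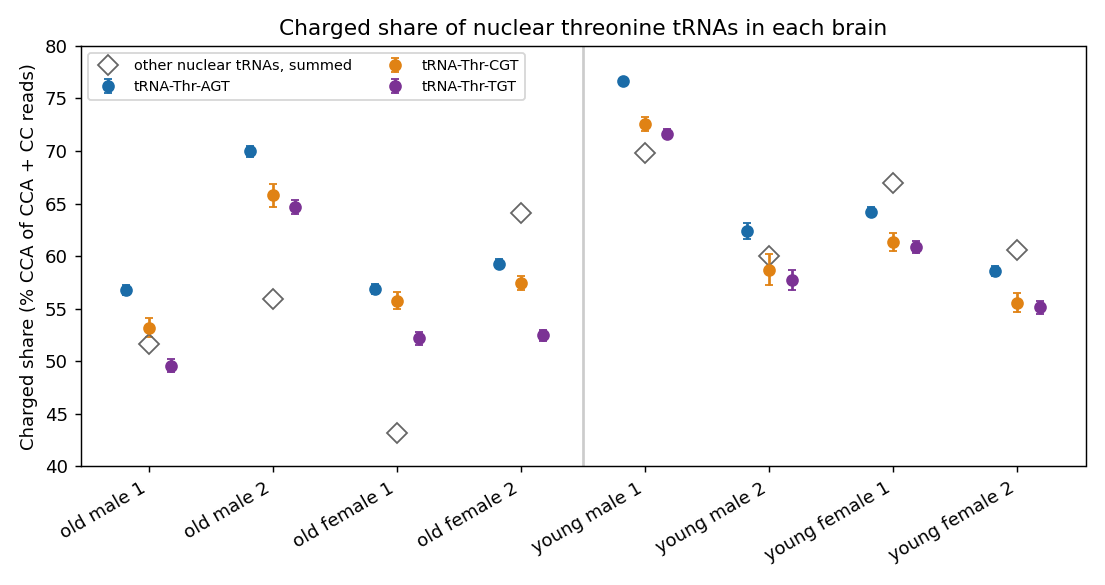
Charged share (% CCA of CCA plus CC reads, vertical axis from 40 to 80%) in each old (left) and young (right) brain, with coloured points and 95% Wilson intervals for the 3 threonine anticodons and diamonds for all other nuclear tRNAs summed. tRNA-Thr-AGT lies above tRNA-Thr-CGT and tRNA-Thr-CGT above tRNA-Thr-TGT in 8 of 8 brains, and the diamonds fall below all 3 in old male 2, old female 1 and young male 1 and above all 3 in old female 2, young female 1 and young female 2.

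The edgeR changes in charging between the ages were −0.31 (SE 0.37) for tRNA-Thr-AGT, −0.25 (SE 0.37) for tRNA-Thr-CGT and −0.40 (SE 0.38) for tRNA-Thr-TGT on the log2 odds scale, with adjusted p values of 0.443, 0.506 and 0.330. By size they ranked 43, 46 and 42 of the 47 anticodons tested, of which 1 was called, or 2.13%. The median change over the 47 was −0.69, and all 47 estimates were below 0, so the anticodons moved together and their calls are not independent. The 4 threonine transcripts gave changes of −0.25 to −0.40 with edgeR adjusted p values of 0.303 to 0.517, where 1.52% of 66 transcripts were called. These background counts rested on old female 2. Without it 38 of 47 anticodons and 52 of 66 transcripts were called, but no threonine anticodon, whose changes were then −0.28, −0.24 and −0.36 in the same order (edgeR adjusted p 0.399, 0.399 and 0.273), and no threonine transcript. Leaving out young male 1 brought the 3 anticodons to −0.06, −0.03 and −0.19, and leaving out old male 2 to −0.50, −0.40 and −0.60, with none called.

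Set against the other nuclear tRNAs of the same brain, threonine charging did not keep one place. The other nuclear tRNAs, summed, were charged to 51.6%, 55.9%, 43.1% and 64.1% in the old brains, against 69.9%, 60.0%, 67.0% and 60.5% in the young brains. Threonine tRNA was 2.37, 11.7 and 12.0 points higher than these in old male 1, old male 2 and old female 1, and in old female 2 the difference was −7.23 points. In the young brains it was 4.54 and 0.300 points higher in the males and differed by −4.32 and −3.55 points in the females. The 2 old females were 21.0 points apart in their other nuclear tRNAs and only 1.73 points apart in threonine tRNA.

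As log2 odds of a CCA end minus the median over amino acids in the brain, threonine stood at −0.00, 0.66, 0.58 and −0.51 in the old brains, against 0.19, −0.09, −0.39 and −0.42 in the young brains. It ranked 13, 3, 2 and 18 of 22 amino acids in the old brains and 5, 13, 18 and 16 in the young brains, counted from the most charged. The mean over all 8 brains was 0.00 (SE 0.13, limma adjusted p 0.996), whereas 72.7% of the 22 amino acids differed from the median. The difference between old and young was 0.36 (SE 0.25) with a limma adjusted p of 0.697, and 4.55% of amino acids were called. The difference was 0.20 without old male 2, 0.23 without old female 1 and 0.59 without old female 2 (limma adjusted p 0.817, 0.811 and 0.0932).

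Of the other amino acids, serine had the highest correlation with threonine over the 8 brains in this relative charging, with a Pearson r of 0.856 and a Spearman rho of 0.881. Tyrosine had r of 0.841 and rho of 0.881, and phenylalanine r of 0.746 and rho of 0.595. These are the 3 highest of 21 by Pearson r and are given as a description. Selenocysteine came next, with r of 0.701 and a rho of 0.667 that was above that of phenylalanine. Without old male 2 and old female 1, the brains farthest from the median for threonine, r was 0.824 for selenocysteine, 0.794 for serine, 0.616 for tyrosine and 0.378 for phenylalanine, so the order of likeness rests partly on those brains. The points share their libraries and the median that was subtracted, and both ages are mixed among them.

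The threonine tRNAs kept one order of charging in every brain, though not every step exceeded counting error. tRNA-Thr-AGT was more charged than tRNA-Thr-CGT by 1.09 to 4.18 points and than tRNA-Thr-TGT by 3.32 to 7.19 points, and tRNA-Thr-CGT more than tRNA-Thr-TGT by 0.428 to 4.95 points, each in 8 of 8 brains. The Wilson intervals of tRNA-Thr-CGT and tRNA-Thr-TGT overlapped in every young brain and in old male 2. Those of tRNA-Thr-AGT and tRNA-Thr-CGT overlapped in old female 1. On the log2 odds scale the mean differences over the 8 brains were 0.19 (SE 0.03) for tRNA-Thr-AGT minus tRNA-Thr-CGT, 0.31 (SE 0.03) for tRNA-Thr-AGT minus tRNA-Thr-TGT and 0.12 (SE 0.03) for tRNA-Thr-CGT minus tRNA-Thr-TGT. Their limma adjusted p values were 0.000260, 5.31e-06 and 0.00283. The mean of tRNA-Thr-CGT minus tRNA-Thr-TGT was 0.19 in old and 0.04 in young brains, so it rests mostly on the old brains. Such differences were common, with 37 of 45 synonymous pairs called, or 82.2%. The 3 pairs share counts and are not independent.

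The sizes of these differences changed with the reads in the denominator. With trimmed reads counted as not CCA, they were 0.13, 0.42 and 0.29 in the same order, and all 3 still passed limma's test. In old female 1 the CCA reads were then 43.2% of all tRNA-Thr-AGT reads, 46.9% of tRNA-Thr-CGT reads and 35.0% of tRNA-Thr-TGT reads, so that tRNA-Thr-CGT stood first in that brain.

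The order of charging by first anticodon base, A over C over T, was compared with the other amino acids whose nuclear anticodons include A, C and T at that base. There were 7 such amino acids with threonine. The full order was found in all 8 brains in 1 of the 7, threonine, in 2 brains for proline and in none for the others. It was taken from threonine's own values, so the count for threonine restates them. Its step from C to T lay within overlapping counting intervals in every young brain and in old male 2. Whether other amino acids kept an order of their own in all 8 brains was not counted. In limma's test the A-first anticodon was called above the T-first in 2 of 7, threonine and proline, and below it in the remaining 5. The C-first anticodon was called above the T-first in arginine (0.76, SE 0.02), leucine (0.23, SE 0.05) and threonine (0.12, SE 0.03), and below it in serine (−0.43, SE 0.04). The A-first anticodon was called above the C-first in 1 of 7, threonine, and below it in 4. Whether threonine's differences depart from those of another amino acid was not tested.

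**Figure D3:**
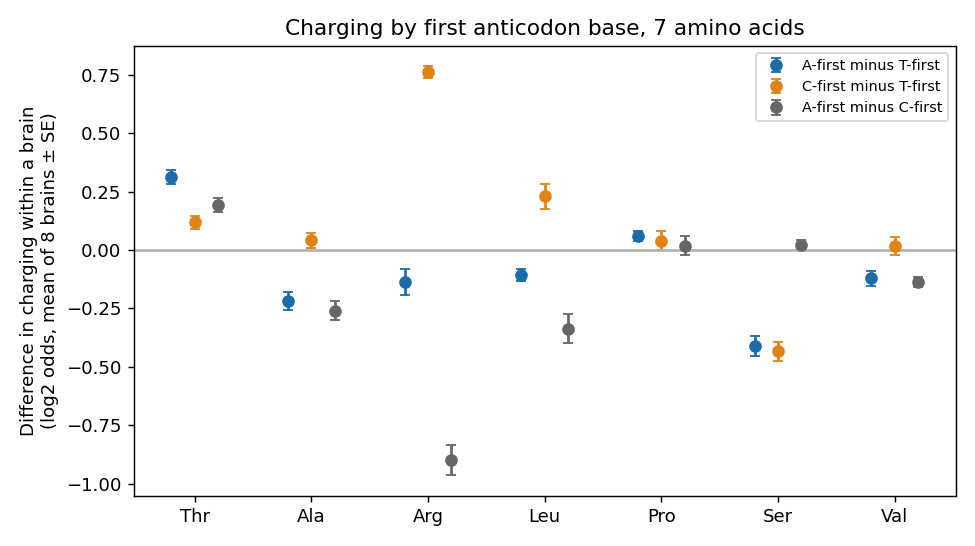
Mean difference in log2 odds of a CCA end within a brain (vertical axis) between anticodons of one amino acid that differ in the first base, for threonine (left) and 6 other amino acids, with bars for the standard error over 8 brains. All 3 threonine differences lie above 0 (0.31, 0.12 and 0.19), while the A-first minus T-first difference is below 0 in 5 of the 7 amino acids.

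The gap between tRNA-Thr-CGT and tRNA-Thr-TGT was wider in every old brain than in any young brain, but the difference did not pass the test over all pairs. On the log2 odds scale it was 0.21, 0.07, 0.21 and 0.29 in the old brains, against 0.06, 0.06, 0.03 and 0.02 in the young brains. Old male 2 lay just above the young brains, at 0.072 against 0.064 in young male 1, and the remaining old brains well above them. In old male 2 the Wilson intervals of tRNA-Thr-CGT and tRNA-Thr-TGT overlapped. The old minus young difference was 0.15 (SE 0.06) with a limma p of 0.0220 before and 0.220 after adjustment. An exact permutation test over the 8 brains gave a two-sided p of 0.0286, the smallest that 4 against 4 allows. That value is reached only with every old brain above every young one, so it rests on the narrow margin of old male 2. With trimmed reads counted as not CCA, the old minus young difference was 0.29, and limma called 0 of the 45 pairs.

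An unadjusted exact p that low was reached by 8.89% of the 45 pairs, and limma called 0% of them with 8 at an unadjusted p under 0.05. In percentage points the gap was 1.13 to 4.95 in old brains and 0.428 to 0.954 in young brains, where it was as small as the counting intervals of tRNA-Thr-CGT. The other differences changed with age by −0.06 (SE 0.06, limma adjusted p 0.696) for tRNA-Thr-AGT minus tRNA-Thr-CGT and by 0.09 (SE 0.06, limma adjusted p 0.363) for tRNA-Thr-AGT minus tRNA-Thr-TGT.

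The trimmed share also differed between brains, and its part in the gap was not tested. tRNA-Thr-TGT, the least charged, was also the most trimmed of the 3 in all 8 brains. Its trimmed share was 16.8%, 13.6%, 32.8% and 7.66% in the old brains, against 5.19%, 9.47%, 6.64% and 8.83% in the young brains. That of tRNA-Thr-AGT was 9.85%, 9.18%, 24.0% and 4.98% in the old brains, against 3.54%, 5.75%, 4.94% and 5.59% in the young brains. That of tRNA-Thr-CGT was 9.29%, 8.22%, 15.9% and 4.78% in the old brains, against 3.87%, 4.94%, 4.09% and 5.27% in the young brains. In each anticodon old female 1 was far above the rest, and the old males were above all young brains. Old female 2 lay within the young range.

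The old minus young change in the log2 odds of a trimmed end was 1.17 (SE 0.56) for tRNA-Thr-AGT, 1.03 (SE 0.54) for tRNA-Thr-CGT and 1.25 (SE 0.57) for tRNA-Thr-TGT, each with an edgeR adjusted p of 0.131. None of 47 anticodons was called, or 0%, with 10 at an unadjusted p under 0.05 and a median change of 1.01. The estimate of tRNA-Thr-TGT ranked 1 of 47 by size, but the next estimates were at 1.20, a distance well within its standard error. None of the 47 estimates was below 0, so the anticodons moved together and their calls are not independent. Without old female 2 the changes were 1.55, 1.35 and 1.65 in the same order, with edgeR adjusted p values of 0.00790, 0.00790 and 0.00585, and 46 of 47 anticodons were called. Without old female 1 they were 0.70, 0.71 and 0.80 (edgeR adjusted p 0.254 each), and no anticodon was called, so both old females decide the size of this change.

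**Figure D4:**
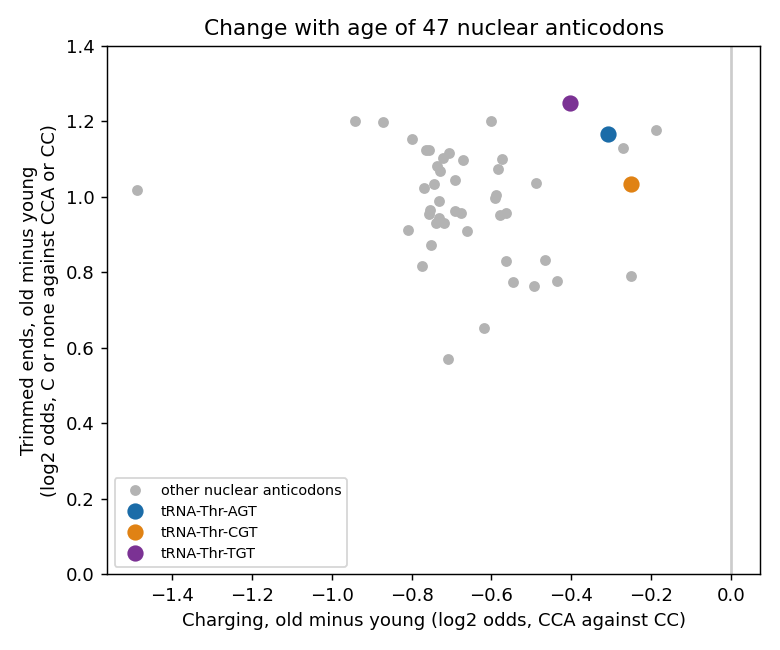
Old minus young change in the log2 odds of a charged end (horizontal axis) and of a trimmed end (vertical axis) for 47 nuclear anticodons, with the 3 threonine anticodons coloured. The threonine anticodons lie toward the smaller changes in charging (−0.25 to −0.40, against a median of −0.69) and at trimmed-end changes of 1.03 to 1.25, against a median of 1.01.

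The make-up of the trimmed reads differed between threonine tRNA and the sum of other nuclear tRNAs in all 8 brains, described here after its values were seen and without a test. Reads with none of the 3 end letters made up 4.94%, 4.51%, 12.8% and 2.33% of threonine tRNA reads in the old brains, against 1.67%, 2.68%, 2.22% and 2.49% in the young brains. Among the other nuclear tRNAs they made up 1.55 to 4.89% in old and 1.16 to 1.57% in young brains. Reads ending in C went the other way, at 7.48 ± 4.14% for threonine and 14.3 ± 7.70% for the other nuclear tRNAs in old brains, and 3.51 ± 0.850% for threonine and 7.45 ± 2.06% for the others in young brains (SD, n = 4 each). There were thus 0.676 to 0.964 threonine reads without any end letter for each read ending in C in old brains and 0.599 to 0.697 in young brains. The same ratio was 0.174 to 0.225 in old and 0.166 to 0.232 in young brains for the other nuclear tRNAs.

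All 3 threonine anticodons contributed to this pattern. Counted from the highest of 47 anticodons in each brain, the share without end letters ranked 3 to 8 for tRNA-Thr-TGT, 6 to 16 for tRNA-Thr-AGT and 8 to 20 for tRNA-Thr-CGT. The share ending in C ranked 31 to 35 for tRNA-Thr-TGT, 37 to 43 for tRNA-Thr-AGT and 36 to 44 for tRNA-Thr-CGT, below the median anticodon in all 8 brains. For tRNA-Thr-TGT the ratio of reads without end letters to reads ending in C was 0.739, 0.817, 1.06 and 0.697 in the old brains, against 0.647, 0.669, 0.676 and 0.658 in the young brains. All old brains lay above all young ones for this ratio, which held for 1 of 47 anticodons, or 2.13%, and both other threonine anticodons overlapped. The spike-in had 4.49 ± 0.455% of reads without end letters in libraries from old brains and 4.61 ± 0.374% in those from young brains (SD, n = 4 each).

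**Figure D5:**
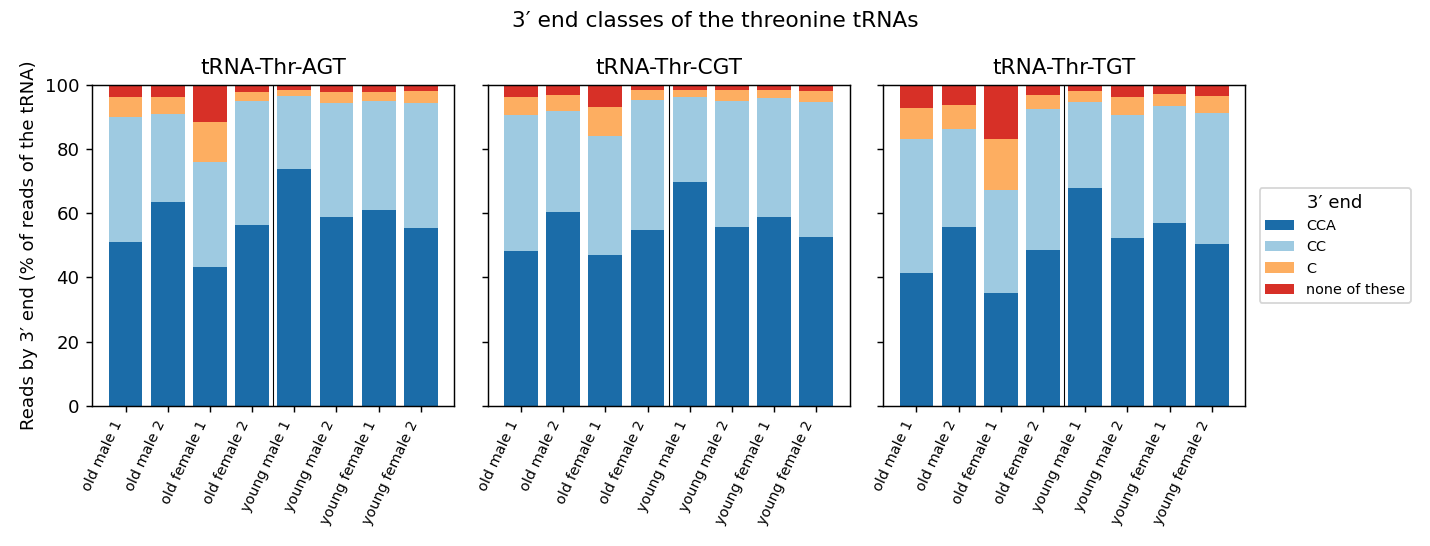
Share of reads with each 3′ end (% of the reads of the tRNA, stacked to 100%) for tRNA-Thr-AGT, tRNA-Thr-CGT and tRNA-Thr-TGT, with old brains left and young brains right of the line. Old female 1 has the largest trimmed share in each panel (24.0%, 15.9% and 32.8%), and the panel of tRNA-Thr-TGT has the largest trimmed share in every brain.

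tRNA-Thr-AGT-2 was a minor species, with 552 to 1955 reads per brain and 2.51 to 3.33% of the tRNA-Thr-AGT reads with a recorded end. Its charged share was 57.4%, 69.9%, 55.2% and 57.3% in the old brains, against 76.7%, 64.0%, 64.3% and 58.6% in the young brains. That of tRNA-Thr-AGT-1 was 56.7%, 70.0%, 56.9% and 59.4% in the old brains, against 76.6%, 62.4%, 64.2% and 58.6% in the young brains. The pair differed by 0.01 on the log2 odds scale (SE 0.02, limma adjusted p 0.684), among 20 pairs of transcripts of one anticodon of which 50% were called. Reads shared by alike transcripts can be assigned to either, so the split between these is uncertain.

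By sex, the charged share of threonine tRNA differed between old and young by −3.84 points in females and −6.54 points in males. The female minus male difference was 2.70 points with an exact permutation p of 0.889, and with 2 brains per age and sex no p below 0.0556 was possible.

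The mitochondrial threonine tRNA, which is made and charged separately, had a charged share of 64.2%, 75.8%, 74.8% and 63.1% in the old brains, against 81.4%, 69.5%, 75.0% and 68.9% in the young brains. As for the nuclear threonine tRNAs, old male 2 was the highest old brain and young male 1 the highest young one, while old female 1 came close to old male 2 only in the mitochondrial tRNA.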

How the data were processed

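The authors oxidized brain RNA purified under mildly acidic conditions, removed exposed 3′ nucleotides by β-elimination, added the spike-in, trimmed reads with cutadapt 3.5 and counted them with mim-tRNAseq against nuclear and mitochondrial tRNAs. The deposited values are raw counts per anticodon and, in a second table, counts per transcript or cluster and 3′ end, with the number of genes per anticodon beside them. The study's methods and the table headers name different identity thresholds for clustering alike transcripts, so which one defined entries such as tRNA-Thr-AGT-2 is not settled. The second table held 98.8 to 99.0% of the threonine reads of the first. Group, sex and replicate number came from the sample labels.

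For abundance the quasi-likelihood test of edgeR 4.0.16 was used (TMM, at least 10 counts in at least 4 brains). Charging and trimmed ends were tested with edgeR with an effect per brain, keeping shifts common to all tRNAs (at least 100 CCA plus CC reads in every brain). Differences within a brain were tested with limma 3.58.1 on log2 odds or ratios with a pseudocount of 0.5. All fits used whole tables with Benjamini-Hochberg adjustment over all features and a threshold of 0.05. SE is the standard error. Initiator and elongator methionine were counted as separate amino acids and selenocysteine as one, which gives 22. R 4.3.3 and Python 3.11.15 were used, and the scripts were tested on simulated data. The simulated charging data held no shift shared by a whole brain, so they do not show how that test behaves under one.

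The text names all nuclear threonine anticodons and transcripts, the mitochondrial one, the spike-in, the 3 amino acids most correlated with threonine, and the amino acids with A-, C- and T-first anticodons. Members, lists and tests were chosen with earlier results of these data known. Alternatives were DESeq2 1.42.0, other scaling, filters, pseudocounts and denominators, limma in place of edgeR, mitochondrial tRNAs in the fit, sex or the replicate number as a factor, and leaving out each brain. Nothing says that brains were processed in separate batches, so p-values are meant to measure the spread between these brains. edgeR pools its estimate of spread over features, and anticodons shifted together within a brain. Its p-values for charging and trimmed ends can therefore be too low, and calls over many anticodons are not independent. tRNA sequences and positions were not analysed here.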

Additional observations from a re-analysis of the deposited data

Results flagged for a closer look

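Among 66 sets of 4 brains of one age examined for a sample far from the others, 4 were flagged, where chance alone flags about 1 in 20. The charged share of tRNA-Thr-AGT-2 was 69.9% in old male 2 and 55.2 to 57.4% in the other old brains. The share of tRNA-Thr-AGT-2 reads ending in C was 3.20% in young male 1 and 4.17 to 4.31% in the other young brains. These shares of reads ending in C rest on 552 to 1940 tRNA-Thr-AGT-2 reads per young brain, and no counting interval was computed for them. The log2 read ratio of tRNA-Thr-AGT over tRNA-Thr-TGT was 0.63 in young male 1 and 0.54 in each of the other young brains. The log2 odds difference in charging between tRNA-Thr-AGT-1 and tRNA-Thr-AGT-2 was −0.10 in young male 2, the brain with the fewest reads, and −0.01 to 0.00 in the other young brains.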

How the results depend on the processing

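Of 467 recomputed values over 40 results, 441 were labelled the same. For log2 values this meant the same direction and side of the threshold, and for counts of members called an unchanged count. Most main results had not passed the threshold, so for these the label means that they still did not. All 3 charging differences between the threonine anticodons passed under each of their 11 alternatives. Scaling to the spike-in turned the abundance changes to 0.015 for tRNA-Thr-AGT, 0.031 for tRNA-Thr-CGT and 0.020 for tRNA-Thr-TGT (log2). The exact permutation test without adjustment called 1 of the 3 differences in charging by age. With single brains left out, threonine charging relative to other amino acids ran from −0.079 to 0.115 (log2), and the tRNA-Thr-AGT-1 minus tRNA-Thr-AGT-2 difference from −0.0020 to 0.025. The read ratios by age ran from −0.072 to 0.126 for tRNA-Thr-AGT over tRNA-Thr-CGT, from −0.026 to 0.057 for tRNA-Thr-AGT over tRNA-Thr-TGT and from −0.151 to 0.075 for tRNA-Thr-CGT over tRNA-Thr-TGT. The count of threonine anticodons called for trimmed ends ran from 0 to 3, with 3 only without old female 2. The cause of these changes was not tested. The labels link same-numbered old and young brains by sex and number alone. As deviations from the mean of each age, their charging over 47 anticodons correlated at 0.793 for female 2. For male 1, male 2 and female 1 it correlated at −0.283, −0.185 and −0.169. In abundance the correlations were −0.366 to 0.197. What else these brains shared cannot be told from the labels. With the replicate block the change in threonine charging was −0.33 (edgeR adjusted p 0.549) and the age difference in the tRNA-Thr-CGT minus tRNA-Thr-TGT gap was 0.15 (limma adjusted p 0.285). The age difference in relative threonine charging, 0.36, had a limma adjusted p of 0.0783 with the block, and no threonine call changed. A minimum of 1000 reads could not be run for tRNA-Thr-AGT-2. Over all nuclear anticodons, 3 were called for abundance with edgeR and TMM, 6 with DESeq2, 1 with the replicate block and 0 with spike-in scaling, none of them for threonine.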
